A study of Rattus norvegicus with 65 samples.

Results

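PYY3-36 and liraglutide, a pair of gut hormone-based treatments, were compared directly with each other in the hypothalamus of 9 of the 65 rats of the series. The members were chosen by group label alone: the 4 PYY3-36-treated and the 5 liraglutide-treated animals, with every gene of the count table. All 9 belonged to batch B, one of the experimental periods of the study, so the comparison was free of the difference between batches. The animals were adult male Wistar rats, an outbred stock, made obese with a high-fat diet before treatment and then offered high- and low-fat food side by side. The PYY3-36 group received 0.1 mg/kg/day through a subcutaneous osmotic minipump together with daily subcutaneous saline, and the liraglutide group 0.4 mg/kg/day by daily subcutaneous injection together with saline from the minipump. Dose, route and time course of delivery therefore differed along with the peptide and cannot be told apart from it. By the authors' account, liraglutide-treated animals began to lose weight, whereas the other peptide group gained weight continuously, as saline-treated animals did. The authors list liraglutide among the treatments that lowered food intake, but not the other peptide given alone. Whether weight course or food intake bears on the gene levels below was not tested. Tissue was taken after 4 weeks of treatment and 10 h of fasting, and hypothalami were isolated from frozen brains. The authors had left out a further PYY3-36-treated animal whose mRNA extraction failed. The saline-treated (5) and PYY3-36 + liraglutide-treated (5) animals of batch B serve below to show where other libraries lay. Saline-treated animals of both batches also enter the tests of each treatment against saline. The study mentions individual cages after the intervention in its account of the surgeries, without naming the peptide groups. Whether any animals were littermates is not given in the sources used here. The p-values of the gene tests rest on the spread between animals within groups, estimated over all 65 libraries of the series. Besides the groups above, these came from PYY3-36 + liraglutide-treated animals of batch A and from gastric bypass, sham-operated, food-restricted (weight-matched) and lean animals.

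PYY3-36 and GLP-1 are released from enteroendocrine L-cells of the gut after meals, and both reduce food intake. PYY3-36 acts mainly on the neuropeptide Y receptor Y2, encoded by Npy2r, which couples to an inhibitory G protein, lowers cAMP and sits as an autoreceptor on NPY/AgRP neurons of the arcuate nucleus. Liraglutide is a long-acting analogue of GLP-1, and its receptor, encoded by Glp1r, couples to a stimulatory G protein, raises cAMP and is found among others on POMC/CART neurons. NPY and AgRP stimulate feeding, whereas the products of Pomc and Cartpt restrain it.

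Sequencing depth was similar in both groups. Estimated counts on genes ran from 21975227 to 26937663 per library in PYY3-36-treated and from 20798887 to 27241394 in liraglutide-treated animals. The exact permutation test of the means (126 arrangements) gave p = 0.476 (adjusted 0.635), and the share of mitochondrial RNA was 1.25% ± 0.226 (SD, n = 4) against 1.49% ± 0.357 (SD, n = 5), exact permutation p = 0.278 (adjusted 0.635 over the 4 library measures). Levels below are CPM, which are counts scaled to a common library size with TMM normalisation, and libraries are named by the replicate number of their label. No library was a copy of another. The neuron markers Snap25, Syt1 and Rbfox3 were present in all 9 libraries, but several peptides that define hypothalamic nuclei were very low in some libraries. In PYY3-36 animal 2, Pmch was at 1.42, Pomc at 3.13, Oxt at 5.6 and Glp1r at 0.0949 CPM. Npy was not low in that library, with 315 counts against 332, 350 and 310 in PYY3-36 animals 1, 3 and 4. The same library held the most cortex marker RNA of the 9 (1894 CPM summed over 10 genes, 201 to 903 in the others), the most oligodendrocyte marker RNA (59710 against 19460 to 42750) and the most choroid plexus marker RNA (1523 against 296 to 866). Lateral hypothalamus markers were at 189, 161 and 213 CPM in liraglutide animals 3, 4 and 5, against 1859 and 5042 CPM in animals 1 and 2. Saline-treated animals of batch B had 167 to 364 CPM. Liraglutide animal 3 further held 249 CPM of 18 liver genes, of which 131 CPM came from Alb (albumin), where the other 8 libraries had 4.94 to 46. Pituitary hormones appeared in PYY3-36 animal 3, with Gh1 (growth hormone) at 317 and Prl (prolactin) at 86.5 CPM. The subunits of thyrotropin, Tshb and Cga, stood at 30.8 and 112 CPM in PYY3-36 animal 1 and at 84.9 and 205 CPM in liraglutide animal 1. The part of tissue composition in the results below was not tested, except where a value without these libraries is given. In bulk tissue, fewer cells of a type and less RNA per cell cannot be told apart.

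**Figure D1:**
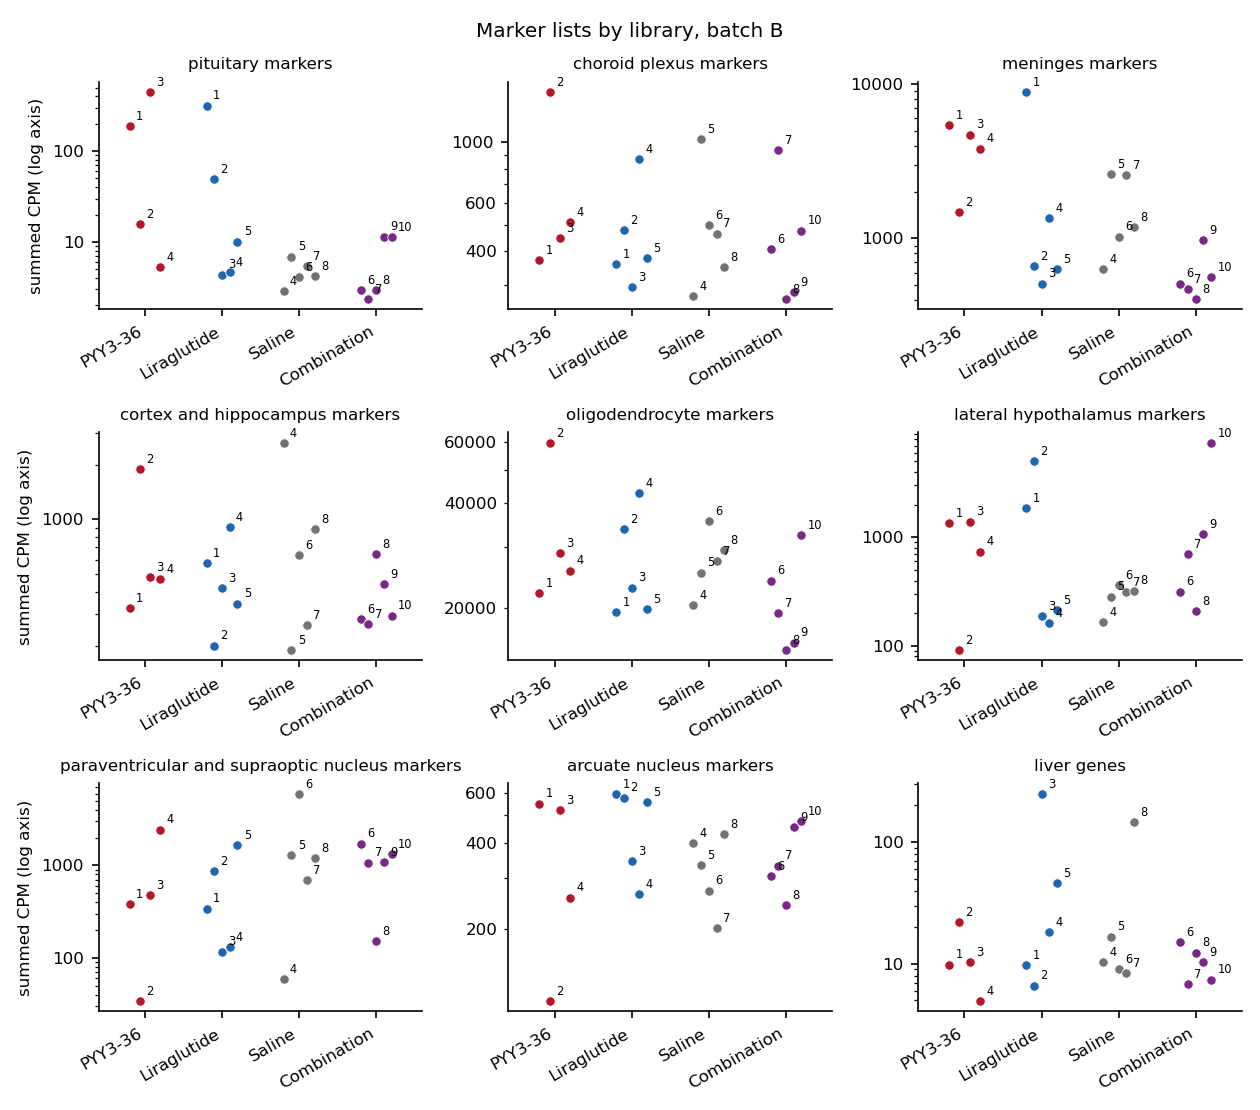
Summed CPM (log axis) of 9 lists of marker genes in each batch B library of the PYY3-36, liraglutide, saline and PYY3-36 + liraglutide groups, with each point numbered by its replicate. PYY3-36 animal 2 is lowest for the lateral hypothalamus list at 91.5 CPM and highest of the 9 for the cortex and choroid plexus lists, and liraglutide animal 3 is highest for the liver genes at 249 CPM.

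The libraries did not separate by peptide. Over 17234 genes, the root mean square difference in log2 CPM was 0.435 to 0.998 (median 0.69) for the 20 pairs made of both treatments, 0.439 to 0.896 (median 0.728) for the 6 pairs of PYY3-36-treated animals and 0.582 to 0.851 (median 0.689) for the 10 pairs of liraglutide-treated animals. The closest pair of all, at 0.435, joined PYY3-36 animal 3 and liraglutide animal 1. PYY3-36 animal 2 lay farthest from the rest, with a mean difference of 0.858, followed by liraglutide animal 3 with 0.804.

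No gene was regulated between PYY3-36- and liraglutide-treated animals. To count as regulated, a gene had to reach p under 0.05 after Benjamini-Hochberg adjustment in edgeR's quasi-likelihood test and a log2 fold change beyond ±1. Of 21871 genes tested, 0 did so (0%), and the smallest adjusted p was 0.0929. Without adjustment, p was under 0.05 for 803 genes (3.67%), of which 486 had higher values with PYY3-36 (2.22%) and 317 lower (1.45%). The ranges of the groups did not overlap in 322 genes (1.47%), with PYY3-36 above liraglutide in 139 (0.636%) and below it in 183 (0.837%). Each treatment set against saline (3 libraries of batch A and 5 of batch B, with a term for batch) also gave 0 regulated genes (0% for both). The median log2 fold change, PYY3-36 minus liraglutide, was 0.00065 over all genes.

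A missed threshold does not show that both peptides acted alike, and the intervals give the size of difference that was left. The 95% confidence interval of the log2 fold change had a median width of ±0.521 and lay within ±1, that is, within a doubling or halving of the level, for 14003 genes (64%). Among the 17092 genes with a mean of at least 1 CPM it did so for 13662 (79.9%). Point estimates passed ±1 in 1356 genes (6.2%), 910 with higher and 446 with lower values under PYY3-36, so differences of that size could not be told from 0 for many genes of low level or of patchy tissue origin.

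**Figure D2:**
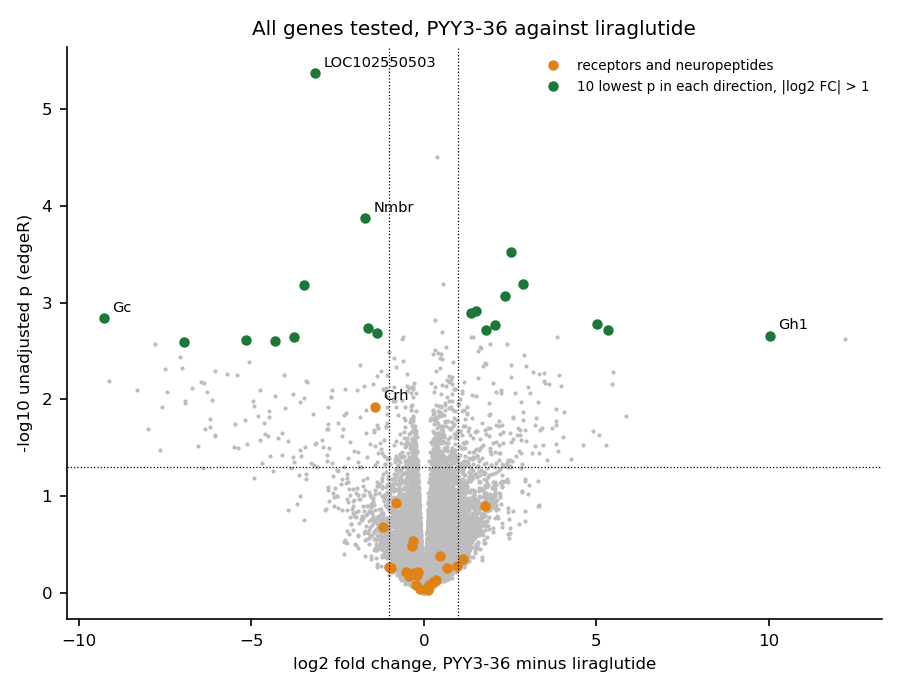
Unadjusted p of edgeR (-log10, vertical axis) against log2 fold change, PYY3-36 minus liraglutide (horizontal axis), for the 21871 genes tested, with dotted lines at p = 0.05 and log2 fold changes of -1 and 1. Green points are the 10 genes of lowest p in each direction past a log2 fold change of 1, led by LOC102550503 at an adjusted p of 0.0929, and orange points are the 12 receptors and 12 neuropeptides of the plot of intervals, a set without Sst, of which Crh alone lies above the horizontal line.

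Neither receptor of the 2 drugs passed the test, and the interval of Glp1r left room for a difference of more than a doubling in either direction. Npy2r, on chromosome 2 (181528949 to 181538145 of Rnor_6.0), was at 12.7, 7.4, 11.1 and 10.3 CPM in PYY3-36-treated animals 1 to 4 and at 18.8, 10.4, 12, 6.33 and 12.2 CPM in liraglutide-treated animals 1 to 5. The ranges overlapped, and the log2 fold change was -0.20 (SE 0.45, 95% interval -1.11 to 0.71). Glp1r, on chromosome 20 (9586075 to 9626228), was at 7.07, 0.0949, 4.14 and 2.3 CPM with PYY3-36 and at 4.5, 2.40, 4.90, 0.939 and 2.60 CPM with liraglutide. Apart from PYY3-36 animal 2, the levels again overlapped, with a log2 fold change of 0.15 (SE 0.71, interval -1.27 to 1.58) over all 9 libraries and 0.55 without PYY3-36 animal 2. Over all settings tried, the Glp1r estimate ran from -0.55 to 0.85. Saline-treated animals of batch B had 5.72 to 10 CPM of Npy2r and 0.452 to 3.73 CPM of Glp1r. Animals given both peptides had 10.7 to 15.8 and 1.88 to 3.66 CPM.

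The other receptors of both peptide families did not pass the test either. Among the Y receptors, Npy1r, which mediates feeding responses to NPY, had the narrowest interval, with a log2 fold change of -0.31 (SE 0.29, interval -0.89 to 0.27), 10 to 16.2 CPM with PYY3-36 and 12 to 28.1 CPM with liraglutide. Npy5r was at -0.33 (SE 0.34, interval -1.01 to 0.34). Npy4r, the receptor preferred by pancreatic polypeptide, had at most 9 counts in any of the 9 libraries, and its interval of -2.31 to 1.48 allowed a large difference in either direction. Among the receptors of the glucagon family, Gipr, the receptor of the incretin GIP, was the best determined, with -0.17 (SE 0.33, interval -0.82 to 0.49) and 3.98 to 7.27 against 3.96 to 9.21 CPM. Gcgr stood at 0.34 (SE 0.99, interval -1.63 to 2.32). For Glp2r, the receptor of GLP-2, 13, 0, 12 and 1 counts with PYY3-36 faced 0, 1, 0, 0 and 8 with liraglutide, and the estimate of 1.77 (SE 1.14, interval -0.51 to 4.06) rested on PYY3-36 animals 1 and 3. Adjusted p in edgeR was 0.999 for each of these genes. Of the 7 tested genes of the PYY and NPY list, 0 had an unadjusted p under 0.05 and 6 had estimates below 0 (median -0.31). Of the 9 tested genes of the GLP-1 and glucagon list, 0 had an unadjusted p under 0.05 and 6 had estimates above 0 (median 0.18).

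The ligands themselves were scarce in this tissue. Gcg, the precursor of GLP-1, had 0 counts in all 9 libraries, which allows up to 3 counts per library by counting error alone. Pyy had 0, 0, 1 and 13 counts with PYY3-36 and 6, 14, 0, 5 and 11 with liraglutide. Most PYY3-36-treated animals were thus at or near 0 while most liraglutide-treated animals were not, but animal 4 reached the liraglutide range, and the log2 fold change of -1.18 (SE 0.93, interval -3.04 to 0.67, edgeR adjusted p = 0.999) did not pass. Without PYY3-36 animal 4 the estimate was -4.10.

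**Figure D3:**
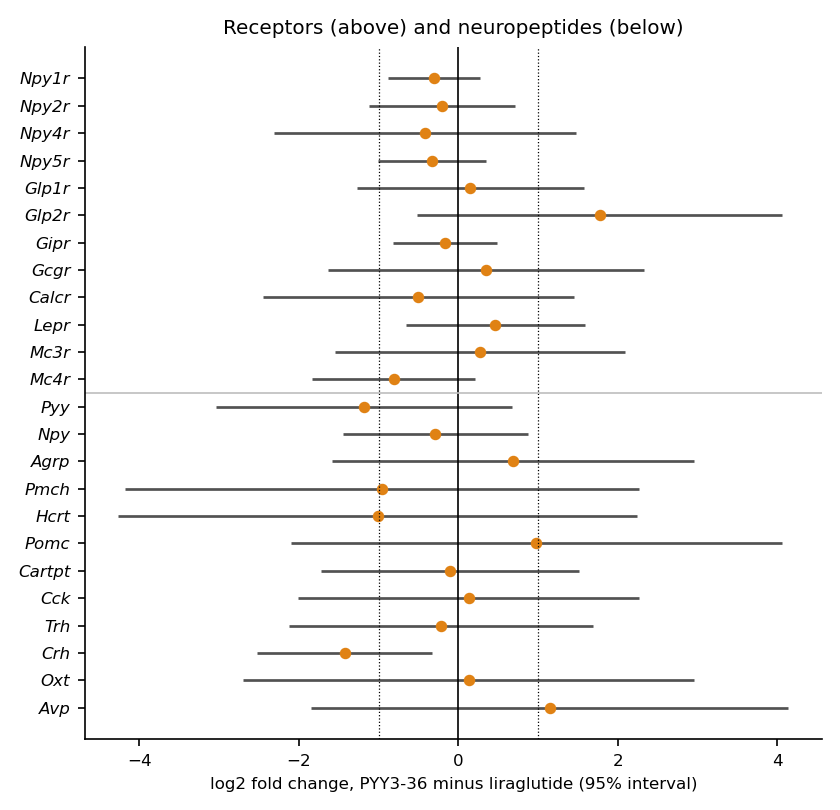
Log2 fold change, PYY3-36 minus liraglutide (points), with its 95% confidence interval (lines) in edgeR for 12 receptors and 12 neuropeptides, with dotted lines at -1 and 1. The interval of Crh, from -2.52 to -0.33, is alone in lying on one side of 0, and the intervals of Pmch, Hcrt, Oxt, Avp and Pomc span several log2 units.

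Promoters of the receptors of the 2 drugs and of the 2 genes of lowest p that passed a log2 fold change of 1, LOC102550503 and Nmbr, are shown because the comparison turns on them. They were taken from RefSeq for the assembly GRCr8, from 250 bases before to 50 bases after the annotated start, written 5′ to 3′ along the gene, whereas all counts and all other coordinates are of Rnor_6.0. All 4 genes had an entry. Because the receptors act through cAMP, the cAMP response element TGACGTCA and its core TGACG were searched on both strands, together with the GC box GGGCGG, the CCAAT box and the TATA sequence TATAAA. Capitals mark matches, and every TGACGTCA holds a TGACG.
Npy2r, chr2:170203051-170203350, minus strand: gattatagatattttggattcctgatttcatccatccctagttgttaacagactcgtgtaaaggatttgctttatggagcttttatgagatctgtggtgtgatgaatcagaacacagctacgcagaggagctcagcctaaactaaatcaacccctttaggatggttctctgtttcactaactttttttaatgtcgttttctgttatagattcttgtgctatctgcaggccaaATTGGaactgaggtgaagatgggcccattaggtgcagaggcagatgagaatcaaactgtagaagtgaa
Glp1r, chr20:8973143-8973442, plus strand: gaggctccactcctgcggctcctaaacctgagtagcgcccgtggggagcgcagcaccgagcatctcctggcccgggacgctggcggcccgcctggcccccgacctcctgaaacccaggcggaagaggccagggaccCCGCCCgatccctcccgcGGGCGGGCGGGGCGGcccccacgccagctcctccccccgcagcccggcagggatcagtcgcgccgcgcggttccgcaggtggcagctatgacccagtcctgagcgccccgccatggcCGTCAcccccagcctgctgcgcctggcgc
LOC102550503, chr16:7558586-7558885, plus strand: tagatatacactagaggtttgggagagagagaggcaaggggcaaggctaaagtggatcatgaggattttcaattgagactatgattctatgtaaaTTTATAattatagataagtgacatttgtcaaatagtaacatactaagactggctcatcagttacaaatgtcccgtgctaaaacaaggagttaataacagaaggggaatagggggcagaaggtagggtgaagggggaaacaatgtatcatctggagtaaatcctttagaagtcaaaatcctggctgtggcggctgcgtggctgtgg
Nmbr, chr1:10954734-10955033, plus strand: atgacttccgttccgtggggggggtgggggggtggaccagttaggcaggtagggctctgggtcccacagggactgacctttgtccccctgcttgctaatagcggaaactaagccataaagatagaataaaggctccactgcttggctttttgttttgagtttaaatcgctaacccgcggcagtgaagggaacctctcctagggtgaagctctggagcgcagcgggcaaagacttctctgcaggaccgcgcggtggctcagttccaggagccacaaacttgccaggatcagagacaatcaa
The windows differed in composition. That of Glp1r was 76% G and C with 32 CpG sites and held the GC box and the core TGACG, while those of Npy2r (40%, 3 CpG sites) and LOC102550503 (41.3%, 3 CpG sites) lay below the median of 51.7% and 7 CpG sites over all 33469 promoters, and Nmbr stood at 55.3% with 11. Npy2r held a CCAAT box and LOC102550503 a TATA sequence, each read on the opposite strand, and Nmbr none of the motifs. TGACG occurred in 21.2% of all promoters, TGACGTCA in 1.83%, GGGCGG in 33.1%, CCAAT in 37.5% and TATAAA in 14.2%. The matches describe the letters of these windows only.

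Of the arcuate nucleus peptides, Pomc, Agrp and Cartpt varied far more between animals of 1 treatment than between treatments. Pomc, the precursor of the satiety signal α-MSH, was at 174, 3.13, 176 and 4.72 CPM in PYY3-36-treated and at 173, 30, 4.11, 3.16 and 16.9 CPM in liraglutide-treated animals. The highest level was 56.3 times the lowest within the PYY3-36 group and 54.6 times within the liraglutide group, and the log2 fold change of 0.98 (SE 1.54) had an interval of -2.10 to 4.06. Pomc is also a pituitary gene, and the 3 libraries with 173 CPM or more held 187, 450 and 317 CPM of pituitary markers where the other 6 held 48.8 or less. The same 3 libraries also had the highest Agrp levels, and the source of the spread in Pomc was not tested. Agrp followed a similar order, with 10.1, 0.949, 4.68 and 0.149 CPM against 8.47, 1.44, 0.446, 0.0989 and 1.8 CPM and a log2 fold change of 0.68 (SE 1.14, interval -1.59 to 2.96). Cartpt was at 179, 5.88, 166 and 62.8 CPM with PYY3-36 and at 188, 241, 39, 9.05 and 77.5 CPM with liraglutide, and its estimate was close to 0 at -0.10 (SE 0.81, interval -1.72 to 1.52). Npy was steadier. It was at 13.2, 14.9, 14.4 and 11.5 CPM in PYY3-36-treated animals, a high-to-low ratio of 1.3, and at 14, 7.31, 29.4, 21.3 and 10.5 CPM in liraglutide-treated animals, a ratio of 4.02, so that all PYY3-36 levels lay inside the liraglutide range. Its log2 fold change was -0.29 (SE 0.58, interval -1.44 to 0.87).

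**Figure D4:**
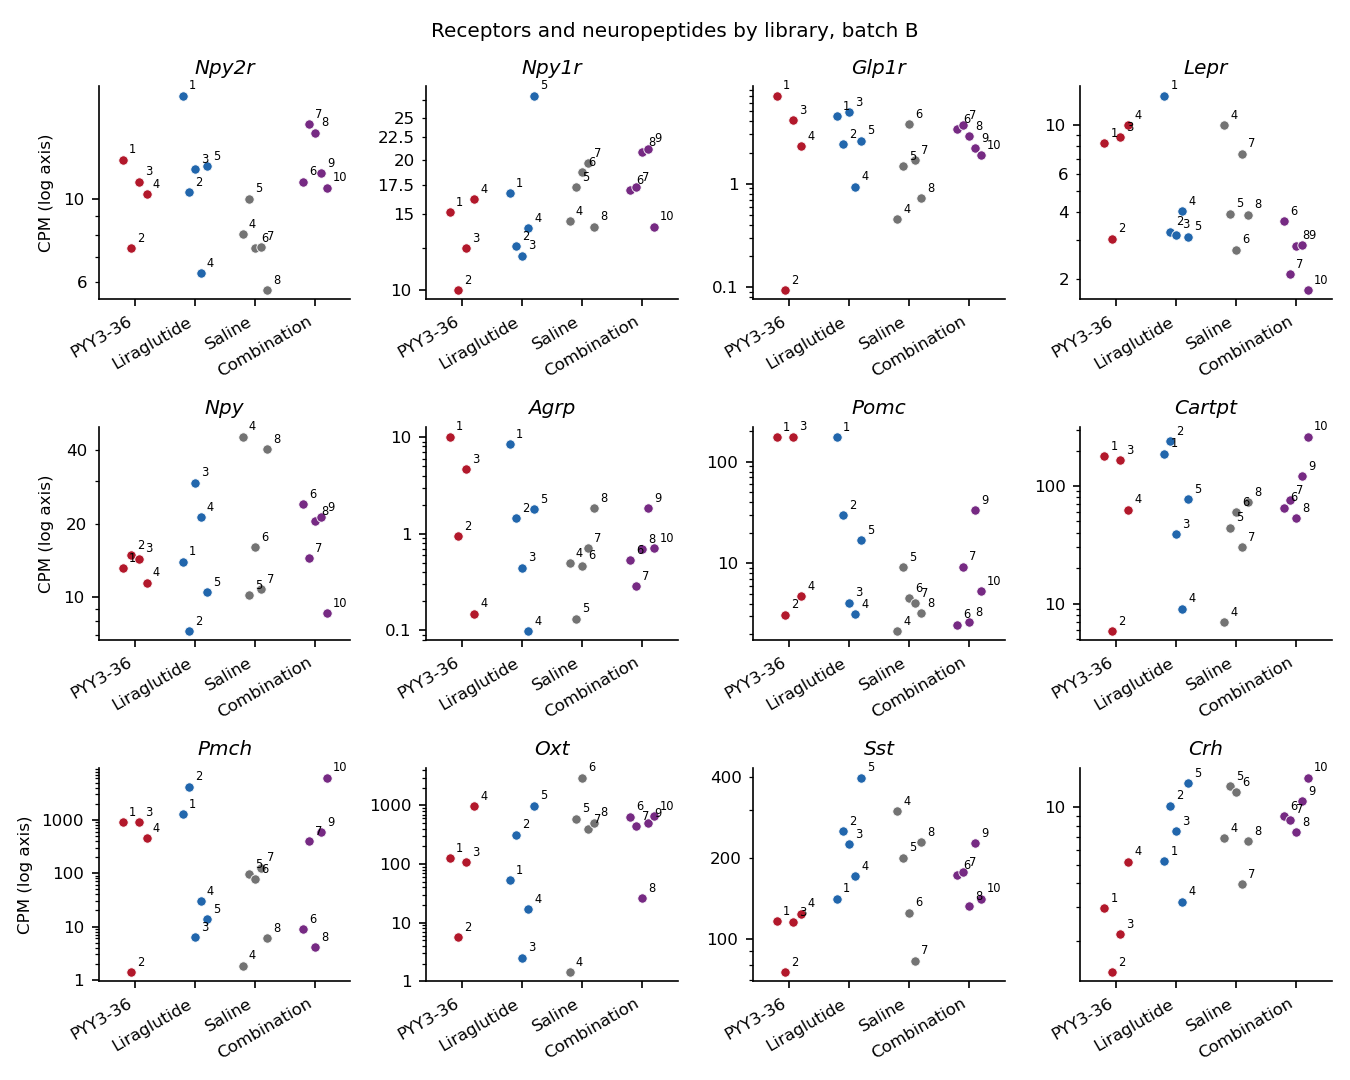
CPM (log axis) of 4 receptors and 8 neuropeptides in each batch B library of the PYY3-36, liraglutide, saline and PYY3-36 + liraglutide groups, with each point numbered by its replicate. Pomc, Pmch and Oxt spread over more than an order of magnitude within each peptide group, and for Sst the 4 PYY3-36-treated animals, at 75.3 to 124 CPM, lie below all 5 liraglutide-treated animals, at 141 to 397 CPM.

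Peptides of the lateral and paraventricular hypothalamus also varied widely, and the intervals of Pmch and Hcrt were wider than that of Pomc. Pmch, the precursor of the feeding-stimulating melanin-concentrating hormone, was at 920, 1.42, 898 and 457 CPM with PYY3-36 and at 1290, 4180, 6.39, 30.1 and 13.6 CPM with liraglutide. Both groups thus held animals with abundant and with almost no Pmch, and the log2 fold change of -0.96 (SE 1.61) had an interval of -4.18 to 2.27. Hcrt, the precursor of orexins, was at 16 to 91.2 CPM in all PYY3-36-treated animals, whereas liraglutide animals 1 and 2 had 193 and 401 CPM and animals 3 to 5 had 0.644, 0.247 and 2.64 CPM (log2 fold change -1.01, SE 1.62, interval -4.26 to 2.24). Oxt was at 125, 5.6, 107 and 972 against 53.7, 319, 2.52, 16.9 and 991 CPM, with an estimate of 0.13 (SE 1.41). Avp was at 102, 2.94, 225 and 1210 against 146, 331, 3.17, 43.7 and 349 CPM, with an estimate of 1.15 (SE 1.5). Trh stood at -0.22 (SE 0.95) and Cck at 0.13 (SE 1.07). At this spread, a difference between the peptides of several-fold in these genes was not detectable.

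Crh and Sst had the lowest p among peptides, both with lower values under PYY3-36, and neither passed the adjusted threshold. Crh, which encodes corticotropin-releasing hormone, the head of the stress axis and itself a suppressor of feeding, was at 2.98, 1.38, 2.17 and 5.2 CPM with PYY3-36 and at 5.22, 10.2, 7.48, 3.21 and 13.4 CPM with liraglutide. Only PYY3-36 animal 4 reached into the liraglutide range, and the log2 fold change was -1.43 (SE 0.55, interval -2.52 to -0.33, unadjusted p = 0.0118 and adjusted p = 0.999 in edgeR). It was -1.20 without PYY3-36 animal 2 and -0.97 without PYY3-36 animals 2 and 3 and liraglutide animal 3. In saline-treated animals Crh was at 3.95 to 12.9 CPM and in animals given both peptides at 7.45 to 14.3 CPM. Sst, which encodes somatostatin, an inhibitor of growth hormone release, was at 116, 75.3, 115 and 124 CPM against 141, 251, 225, 171 and 397 CPM. The groups did not overlap, and the log2 fold change was -1.14 (SE 0.41, interval -1.97 to -0.31, unadjusted p = 0.00789 and adjusted p = 0.999 in edgeR). Saline-treated animals spanned both groups, from 82.9 to 299 CPM.

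Of the 17 tested feeding-suppressing peptides, Crh was the single gene with an unadjusted p under 0.05 (median log2 fold change of the list -0.10), and of the 11 tested feeding-stimulating peptides there was none (median -0.12). Among receptors for these peptides, Lepr, the leptin receptor, was at 8.26, 3.04, 8.78 and 9.96 CPM with PYY3-36 and at 13.6, 3.27, 3.17, 4.05 and 3.11 CPM with liraglutide. PYY3-36 animals 1, 3 and 4 and liraglutide animal 1 were thus high, and the estimate of 0.46 (SE 0.56, interval -0.66 to 1.58) did not pass. It was 1.14 without liraglutide animal 1 and 0.29 without PYY3-36 animal 4. These 4 libraries also held the most meninges marker RNA, 3825 to 8910 CPM against 509 to 1478 CPM in the other 5, although saline animal 4 had 10 CPM of Lepr with 636 CPM of meninges markers. The melanocortin receptors differed in sign, with Mc3r at 0.27 (SE 0.91) and Mc4r, the receptor through which α-MSH lowers food intake, at -0.81 (SE 0.51, interval -1.84 to 0.21). Mc4r was at 1.83, 1.61, 2.38 and 6.65 CPM with PYY3-36 and at 2.89, 3.37, 8.91, 6.43 and 5.9 CPM with liraglutide. Calcr, the core of the amylin receptor, stood at -0.50 (SE 0.97).

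Across the lists of signalling, synaptic and metabolic genes, members with a low p were no more frequent than among all genes. The 412 distinct genes of 25 such lists held 10 with an unadjusted p under 0.05 (2.43%, against 3.67% of all genes), 3 with higher and 7 with lower values under PYY3-36, and 5 whose groups did not overlap, against 1.47% of all genes. The 3 higher were Akt2 of the insulin pathway (0.38, SE 0.18), Hr, a thyroid hormone-responsive corepressor (0.40, SE 0.18), and Nfkb2, a subunit of NF-kB (0.56, SE 0.27). Akt2 and Hr were highest in PYY3-36 animal 2, at 98.1 and 78.1 CPM against 38 to 58.3 and 28.6 to 53.5 CPM in the other 8 libraries, and the estimates without it were 0.06 and 0.10. Nfkb2 was at 8.38, 8.82, 8.49 and 6.99 CPM against 6.98, 5.1, 3.91, 5.98 and 5.79 CPM, so the lowest PYY3-36 and the highest liraglutide level nearly met. Besides Crh and Sst, the lower genes were Vgf, a neuropeptide precursor involved in energy balance (-0.54, SE 0.24), Rora, a nuclear receptor of the circadian clock (-0.81, SE 0.36), Slc32a1, the vesicular transporter of GABA (-0.73, SE 0.36), Gria4, a subunit of AMPA receptors (-0.40, SE 0.19), and Dio3, the enzyme that inactivates thyroid hormone (-1.89, SE 0.92). Gria4 was at -0.22 without PYY3-36 animal 2 and at -0.63 without PYY3-36 animal 4, and Vgf was at -0.34 without PYY3-36 animal 2. Slc32a1 was highest in liraglutide animal 3 at 341 CPM, and Rora in liraglutide animal 4 at 58.8 CPM. All had an adjusted p of 0.999 in edgeR.

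Leptin and JAK-STAT genes had 0 of 21 members with an unadjusted p under 0.05. Their median was 0.11 with 18 estimates above 0, and 19 of the 21 intervals lay within ±1. Stat3, the transcription factor downstream of the leptin receptor, was at 94.7, 57.7, 86.4 and 69.1 CPM with PYY3-36 and at 87.9, 63.6, 40.9, 54.7 and 63.2 CPM with liraglutide, and Socs3, its feedback inhibitor, had the highest estimate of the list at 0.58 (SE 0.49). Of the PI3K-Akt genes 20 of 21 intervals, of the AMPK genes 14 of 17 and of the cAMP, MAPK and PKA genes 20 of 25 lay within ±1, with medians of 0.07, 0.04 and -0.04. Prkag1, the regulatory gamma subunit of AMPK, did not overlap between groups, at 87.8 to 93.6 CPM with PYY3-36 and 95.1 to 106 CPM with liraglutide, a small difference (-0.12, SE 0.08). In the cAMP list, through which both receptors signal, 0 of 25 genes had an unadjusted p under 0.05. Immediate early genes, markers of recent neuronal activity, were split into 11 above and 9 below 0 (median 0.01), but 2 of 20 intervals were within ±1. Fos was at 9.41, 7.54, 28.1 and 21 against 20.6, 13.8, 14, 34.2 and 16.9 CPM. Genes of endoplasmic reticulum stress (18, median -0.01), the clock (18, median -0.05) and glucocorticoid response (17, median 0.16) had 0, 1 and 0 members with an unadjusted p under 0.05.

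Oxidative phosphorylation and ribosomal protein genes showed small estimates of 1 sign. All 46 oxidative phosphorylation genes, nuclear-encoded subunits of the respiratory chain and ATP synthase, had estimates below 0, from -0.36 for Ndufa4 to -0.07 for Sdhd (median -0.22). None had an unadjusted p under 0.05, all 46 intervals lay within ±1, and genes of 1 process are not independent of each other. Ndufa4 was at 282, 271, 282 and 285 CPM with PYY3-36 and at 296, 387, 465, 344 and 304 CPM with liraglutide, without overlap (-0.36, SE 0.20, adjusted p = 0.999 in edgeR). The sum over the list was 10320, 9764, 10510 and 10050 CPM against 10080, 13110, 13850, 11800 and 10260 CPM. Liraglutide animals 1 and 5 lay at the PYY3-36 level and animals 2, 3 and 4 above it, while saline-treated animals had 11800 to 13000 CPM. All 46 estimates stayed below 0 under each other scaling and without each of 4 libraries, and 45 did without PYY3-36 animals 2 and 3 and liraglutide animal 3 together (median -0.145). Of the 38 ribosomal protein genes, all were below 0 (median -0.11), 37 with upper-quartile scaling and 35 with scaling by total counts alone.

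Inflammation and NF-kB genes (15 of 17 above 0, median 0.34), cholesterol and fatty acid synthesis genes (17 of 19 above 0, median 0.17), GABA genes (13 of 16 below 0, median -0.24) and serotonin receptors (10 of 12 below 0, median -0.20) had 1, 0, 1 and 0 members with an unadjusted p under 0.05. Some of these medians moved when libraries were left out. The inflammation median was 0.17 without PYY3-36 animal 2 and 0.64 without liraglutide animal 1. Without liraglutide animal 3 the serotonin receptor median was 0.00415 with 6 genes on either side of 0. The cholesterol median stayed between 0.139 and 0.188 without each of 4 single libraries and was 0.02 without PYY3-36 animals 2 and 3 and liraglutide animal 3 together.

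The gene with the lowest p was LOC102550503, an lncRNA without known function on chromosome 16 (8466963 to 8469867 of Rnor_6.0, plus strand, 1877 bases of exon), between Parg and Ogdhl. It was at 0.476, 0, 0.123 and 0.149 CPM in PYY3-36-treated animals and at 2.05, 2.12, 2.33, 1.19 and 0.989 CPM in liraglutide-treated animals. All 4 PYY3-36 levels lay below all 5 liraglutide levels, and the log2 fold change was -3.15 (SE 0.62, interval -4.39 to -1.91), with an adjusted p of 0.0929 in edgeR that missed the threshold. The saline-treated animals of batch B were at 1.04 to 2.71 CPM and the animals given both peptides at 1.99 to 4.01 CPM. All of these libraries lay within or above the liraglutide range. Over the 61 libraries of the other groups the level ran from 0.221 to 5.18 CPM (median 1.88), and the second lowest was 0.703 CPM, so that the 4 PYY3-36 libraries were among the 5 lowest of the 65. Its estimate lay below 0 in every setting tried, and it was called regulated without PYY3-36 animal 1 (-4.14, adjusted p = 0.0141), by limma-trend (-3.07, adjusted p = 0.00189), by DESeq2 without shrinkage (-3.18, adjusted p = 0.000429) and by the same on the 9 libraries alone (-3.18, adjusted p = 0.00477). These were 4 of 25 settings, over which the estimate ran from -4.14 to -0.96. The others, DESeq2 with shrinkage as in the methods of the study among them, did not call it. Without PYY3-36 animal 3 or 4, the smallest adjusted p of any gene in edgeR was 0.677 or 0.605.

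Nmbr, the receptor of neuromedin B, a bombesin-like peptide that reduces food intake, came next among genes with a log2 fold change past 1 (chromosome 1, 8933744 to 8945850). It was at 1.11, 0.996, 0.656 and 2.04 CPM with PYY3-36 and at 1.89, 2.31, 4.95, 3.16 and 7.25 CPM with liraglutide, with PYY3-36 animal 4 just inside the liraglutide range. The log2 fold change was -1.70 (SE 0.42, interval -2.53 to -0.87, adjusted p = 0.984 in edgeR), and it ran from -2.09 to -1.35 when single libraries were left out. Saline-treated animals had 1.74 to 3.09 CPM and animals given both peptides 1.21 to 3.14 CPM. Wisp3, a secreted matricellular protein, was lower in all 4 PYY3-36-treated animals (0.123 to 0.237 CPM) than in all 5 liraglutide-treated animals (0.297 to 0.842 CPM), with -1.35 (SE 0.42) and 0.282 to 0.822 CPM in the saline and combination groups.

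**Figure D5:**
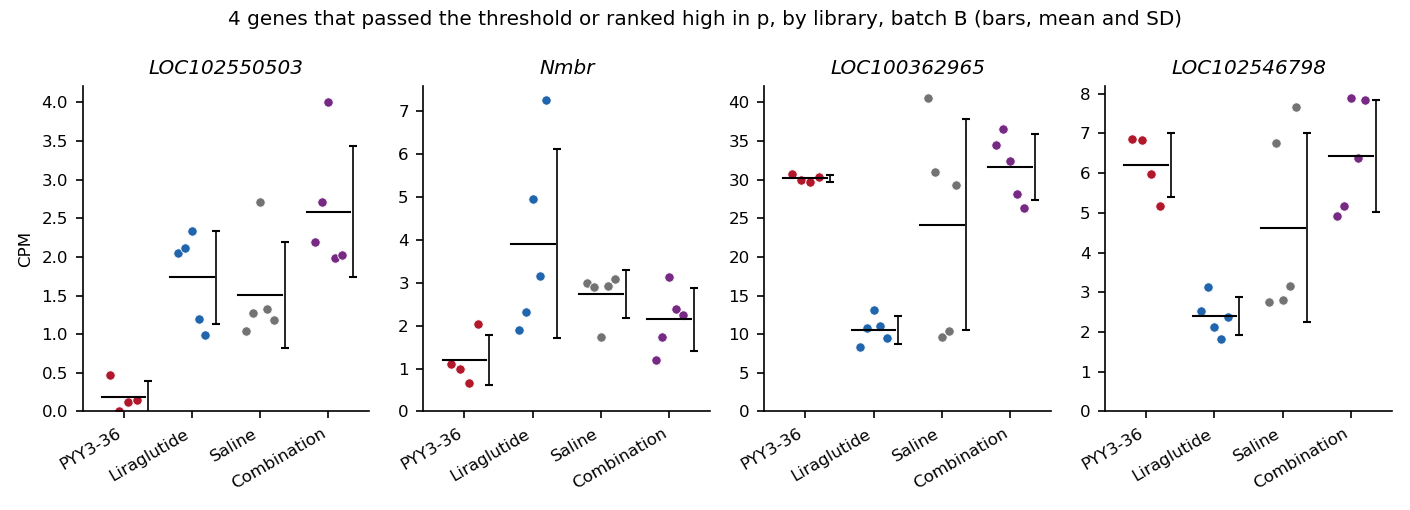
CPM of LOC102550503, Nmbr, LOC100362965 and LOC102546798 in each batch B library of the PYY3-36, liraglutide, saline and PYY3-36 + liraglutide groups (points), with mean (horizontal line) and SD (bar). For LOC102550503 the PYY3-36-treated animals, at 0 to 0.476 CPM, lie below every other library shown, whereas for LOC100362965 the saline-treated animals fall at both the PYY3-36 and the liraglutide level.

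Most other genes of lowest p were scarce transcripts or rested on the libraries that stood apart. Itih4, Gc, Serpina1, Afm, C4bpa and Cyp2c23, all made by liver, were 6 of the 10 genes of lowest p among those with lower values under PYY3-36 and a log2 fold change past 1, and liraglutide animal 3 had the highest level of each. Gc, the vitamin D-binding protein, was at 11.8 CPM there, at 2.16 CPM in liraglutide animal 5 and at 0.0401 to 0.0962 CPM in the other 3, against 0 in all PYY3-36-treated animals. Saline animal 8 had 6.28 CPM of Gc, and the saline libraries of batch B summed to 8.34 to 146 CPM of liver genes. Without liraglutide animal 3 the estimate for Serpina1 was -0.71 instead of -1.62. Over the 18 liver genes, a list added after values were seen, the median was -4.39 with all libraries and -2.56 without that animal. Of these 18 estimates, 17 stayed below 0 without it. Among the remaining liraglutide-treated animals, the liver genes summed to 46 CPM in animal 5, above the PYY3-36 range of 4.94 to 22 CPM. Animals 1, 2 and 4 lay inside that range, at 9.71, 6.64 and 18.25 CPM. The source of these levels was not tested. Cyp2c23 was at 2.72 CPM in liraglutide animal 3, at 0.11 CPM in animal 5 and at 0 in the other 7 libraries. Sycn was at 0 to 0.082 CPM against 0 to 1.28 CPM.

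Among the 10 genes of lowest p with higher values under PYY3-36, LOC102550306, LOC103692612, LOC100360378, Cenph and Prx did not overlap between groups, and all but Prx, LOC102549117, Tmem116 and Gh1 stayed below 1 CPM in every one of the 9 libraries. Tmem116, a transmembrane protein, was at 1.15, 1.23, 1.11 and 0.297 CPM against 0.201, 0.337, 0.099, 0.198 and 0.0733 CPM (2.37, SE 0.67, adjusted p = 0.999 in edgeR), while saline-treated animals covered 0.296 to 0.905 CPM. LOC102550306 was at 0.556, 0.332, 0.82 and 0.52 against 0.0401, 0.144, 0, 0.0494 and 0.22 CPM (2.52, SE 0.66). LOC100360378 and LOC102555011 had 0 counts in all liraglutide-treated animals. With PYY3-36, LOC100360378 was at 0.0794, 0.0474, 0.369 and 0.0743 CPM and LOC102555011 at 0.318, 0, 0.205 and 0.186 CPM. Cenph, a kinetochore protein, was at 0.492 to 0.913 against 0.099 to 0.281 CPM, with saline-treated animals from 0.0452 to 0.927 CPM. Prx, a protein of peripheral myelin, was at 12.2, 2.42, 6.27 and 2.45 against 2.41, 0.962, 1.93, 2.23 and 0.769 CPM (1.82, SE 0.56). Gh1 was at 317 CPM in PYY3-36 animal 3 and at most 0.409 CPM in the other 8 libraries, so its log2 fold change of 10.03 (SE 3.13) came from 1 library. Tbcel, a tubulin-binding protein singled out after its values were seen, had the second lowest p of all genes with a small difference, 56.2 ± 5 CPM (SD, n = 4) against 42.9 ± 2.78 CPM (SD, n = 5), a log2 fold change of 0.39 (SE 0.09) and an adjusted p of 0.345 in edgeR.

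Marker lists set single animals apart. Of 172 distinct marker genes, 6 had an unadjusted p under 0.05 (3.49%, against 3.67% of all genes). All 10 cortex markers (median 0.78), all 10 choroid plexus markers (median 0.75) and all 10 meninges markers (median 0.80) had estimates above 0. Without PYY3-36 animal 2 the cortex and choroid plexus medians were -0.18 and -0.01, whereas the meninges median was 1.06, and 2.41 without liraglutide animal 1, which had the highest meninges sum of the 9 at 8910 CPM. The 2 pituitary genes with a low p, Gh1 and Prl, came from PYY3-36 animal 3, and Prl was at 0 in all liraglutide-treated animals. Of the thalamus and habenula markers, Gbx2 had the lowest estimate at -3.41 (SE 1.21), from 0.0474 to 1.34 CPM with PYY3-36 and 0.241 to 19.9 CPM with liraglutide, highest in animals 3 and 5. Microglia (12 genes, median -0.00157) and neuron markers (10 genes, median -0.11) had 0 members with an unadjusted p under 0.05, and all of their intervals lay within ±1.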

How the data were processed

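Poly-A RNA of 65 hypothalami, 1 library per animal, was sequenced by the authors. Their processing used cutadapt in several versions, STAR 2.7.2b with Rnor_6.0 and featureCounts 1.6.4, which counted by strand and split reads that matched several places or genes into fractions. What the authors deposited are thus estimated counts, and genes with near-identical copies are uncertain. No column was left out. Counts were rounded to whole numbers. In R 4.3.3, edgeR 4.0.16 (minimum count 10, total 15, TMM scaling, robust quasi-likelihood test) was fitted to all 65 libraries with terms for group and batch, a model chosen here, so that all groups share the estimate of spread, and p-values were adjusted over all 21871 genes tested of 38513. DESeq2 1.42.0 and limma 3.58.1 served as alternatives. The code was tested on simulated data. Intervals and floors of 3 counts cover the model and counting error only. Depth ran from 20041010 to 36539941 counts per library.

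Groups came from the labels. Genes named are the 10 of lowest p in each direction with an absolute log2 fold change over 1, a fixed set of receptors and peptides, and the 2 of lowest p in each list, as far as needed. Members and lists were chosen with earlier results of these data known, and the lists of liver, Schwann cell and cell division genes were added after values were seen. Results of a few listed genes are not reported here.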

Additional observations from a re-analysis of the deposited data

Results flagged for a closer look

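In 26 of 128 sets of values, 1 animal lay farther from its group than Dixon's 95% criterion allows. Chance gives about 1 in 20 for independent, normally distributed values, a rate that does not apply here, since many genes were picked for a low p or after values were seen, CPM are skewed and lists overlap. Liraglutide animal 1 was high for Agrp (8.47 CPM, next 1.8), Pomc (173, next 30), Lepr (13.6, next 4.05), Cenph (0.281, next 0.144) and the summed meninges (8910, next 1360) and pituitary (317, next 48.8) markers. Liraglutide animal 3 was high for the liver genes Gc (11.8 CPM, next 2.16), Itih4 (5.3, next 0.586), Serpina1 (21.9, next 5.5), Afm (2.03, next 0.476) and Cyp2c23 (2.72, next 0.11) and for their summed list (249, next 46). Liraglutide animal 5 was high for Glp2r (0.293 CPM, next 0.0481) and LOC102549117 (2.38, next 0.939).

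PYY3-36 animal 2 was high for Hr (78.1 CPM, next 43.3), Afm (0.0474, next 0, a single count) and the choroid plexus (1520, next 511) and cortex (1890, next 480) markers, and low for Sst (75.3, next 115). PYY3-36 animal 3 was high for Gh1 (317 CPM, next 0.409), Prl (86.5, next 0.0743) and LOC100360378 (0.369, next 0.0794). PYY3-36 animal 4 was high for Oxt (972 CPM, next 125), Mc4r (6.65, next 2.38) and Pyy (0.483, next 0.041) and low for Tmem116 (0.297, next 1.11).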

How the results depend on the processing

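The count of 0 regulated genes was the same with the 28 batch B libraries, the 19 infusion libraries, both other scalings, both other filters, floored counts, both sets of tissue scores and DESeq2 with shrinkage. It was 1 in the 9 libraries alone (LOC100362965, 1.52) and by limma-trend (LOC102550503), 12 by DESeq2 without shrinkage and 4 by DESeq2 on the 9 libraries, the last chosen after seeing the data. LOC102550503 was among both of these. Leaving out single libraries gave 0 to 1, the 1 being LOC102550503 without PYY3-36 animal 1. Without PYY3-36 animals 2 and 3 and liraglutide animal 3 it was 0, with 270 genes at an unadjusted p under 0.05 in place of 803. That number ran from 432 without PYY3-36 animal 2 to 1217 without liraglutide animal 1 over the single removals, with 482 without liraglutide animal 3, and was 1269 with the cortex, arcuate, paraventricular and lateral hypothalamus scores. The cause was not tested.

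Same-numbered libraries correlated at 0.347, -0.0921, 0.0189 and 0.0405, and 0 of 4 PYY3-36 libraries correlated best with their own replicate number. PYY3-36 animal 1 came close, with a highest correlation of 0.352 to liraglutide animal 2. These values cannot exclude a pairing by number, since each rests on 1 pair of libraries. With the replicate number as a block, 0 genes were regulated and 965 had an unadjusted p under 0.05, against 780 without the block.

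A sign was counted as turned where the estimate had exceeded its SE. Without the 3 libraries this held for Nmb (-0.11), Mt2A (-0.051), Htr3a (0.040), Hr (-0.027), Mag (-0.087), Enpp2 (-0.081), Neurod6 (-0.31), Nts (0.026) and Rfx4 (-0.010). It held with pituitary, choroid plexus and meninges scores for Dynlrb2 (-0.18) and Folr1 (-0.26), and for Neurod6 with cortex, arcuate, paraventricular and lateral hypothalamus scores (-0.38) and without PYY3-36 animal 2 (-0.36). The estimate for Neurod6 ran from -0.36 to 2.49 when single libraries were left out. The cortex, arcuate, paraventricular and lateral hypothalamus scores and the joint removal of 3 libraries were chosen after seeing the data.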

Other observations

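Genes in this section were chosen after their values were seen. LOC100362965, a protein-coding locus of 271 bases on chromosome 17 (61332160 to 61332430 of Rnor_6.0), was at 29.7 to 30.7 CPM in the PYY3-36-treated and at 8.31 to 13.1 CPM in the liraglutide-treated animals, with a log2 fold change of 1.52. Over all 65 libraries its level fell into 2 ranges with a gap from 13.1 to 17.9 CPM, 42 libraries below and 23 above. In batch B, 3 saline-treated animals were above and 2 below the gap, and all 5 animals given both peptides were above, so the level also varied within the saline group.

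The neighbouring genes LOC108349634 and LOC102546798 on chromosome 1, 2584 bases apart, had nearly the same level in every library, with a ratio of 0.825 to 1.03. They were at 5.13 to 6.88 and 5.17 to 6.87 CPM with PYY3-36 and at 1.73 to 3.13 and 1.83 to 3.13 CPM with liraglutide. Saline-treated animals of batch B spanned 2.33 to 7.72 and 2.76 to 7.67 CPM.

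Slc6a3, the dopamine transporter, was at 83.9, 0.0474, 146 and 0.0372 CPM with PYY3-36 and at 30.2, 0.24, 0, 16.8 and 0.769 CPM with liraglutide. It had 0 counts in all 5 saline-treated animals of batch B, and 1, 8, 2, 40 and 11 counts in the batch B animals given both peptides. High levels thus came from some animals of each group, and their source was not tested.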
